A study of Mus musculus with 25 samples.

Results

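The difference between p53KO and Rosa26KO livers, averaged over both diets, was measured in all 25 of 25 RNA sequencing libraries of the study. A library was counted as p53KO or Rosa26KO by its label, which gave 13 p53KO and 12 Rosa26KO libraries, and no measured value was used to choose them. The average joins Control_p53KO minus Control_Rosa26KO with HFD_p53KO minus HFD_Rosa26KO in equal weight, so that diet stays a term of the comparison. Livers came from C57BL6/J male mice, all 24 months of age. On control diet there were 6 Rosa26KO libraries (Control_Rosa26KO) and 6 p53KO libraries (Control_p53KO). On HFD (high-fat diet) there were 6 Rosa26KO libraries (HFD_Rosa26KO) and 7 p53KO libraries (HFD_p53KO). Every animal thus carried a knockout, either of p53 or of the Rosa26 locus, a site commonly used as a control. The labels do not say how the knockouts were made, in which cells, or from what age. They do not tie the libraries to named animals either, so p-values measure the spread between these samples.

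The protein p53 is a transcription factor that is stabilised after DNA damage and other stress, and that switches on genes of cell cycle arrest, cell death, DNA repair and metabolism. Mdm2 and Mdm4 hold it in check, and several of its targets, Mdm2 and Ccng1 among them, feed back on it. In liver, p53 is known for roles in regeneration, lipid metabolism and tumour suppression.

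Total counts per library ran from 16324283 to 21501281, and 14133 of 24537 genes had enough counts to be tested. No gene passed the threshold in the average by edgeR's quasi-likelihood test with Benjamini-Hochberg adjustment (0 of 14133 genes, 0.0%), and 573 genes (4.05%) had an unadjusted p under 0.05. DESeq2 called 7 genes (0.0495%), limma voom with quality weights called 2 (0.0142%), and edgeR with 4 surrogate variables as added terms called 10 (0.0708%). By the mean log2 level of each list, neutrophil genes were highest in Control_p53KO 1, Control_p53KO 3 and HFD_Rosa26KO 6. Acute phase genes were highest in Control_p53KO 1, Control_Rosa26KO 1, HFD_p53KO 2 and HFD_p53KO 7. These libraries stood apart from the rest by that measure. By the summed level of the neutrophil genes, HFD_p53KO 2 (3962 CPM) was above HFD_Rosa26KO 6 (1009 CPM). All 16 hepatocyte markers were detected, and their summed level ran from 84812 CPM in an HFD_p53KO library to 221523 CPM in HFD_Rosa26KO 6.

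Trp53, the gene of p53 itself (chromosome 11, 69580359 to 69591873, plus strand, GRCm38), was lower in p53KO livers on both diets, by 32.2% in the average. On control diet its normalised level, as CPM (read counts scaled to a common library size), was 31.6 at the lowest, 35.7 at the median and 43.7 at the highest in Rosa26KO, against 17.2, 23.3 and 35.6 in p53KO. On HFD the same values were 30.6, 37.2 and 43.8 CPM in Rosa26KO and 19.6, 26.1 and 31.0 CPM in p53KO. All 13 p53KO libraries lay below the Rosa26KO median of their diet, and 5 of 6 on control diet and 6 of 7 on HFD lay below every Rosa26KO library. The exceptions were Control_p53KO 3 and HFD_p53KO 7. The transcript was present in every p53KO library. In whole liver, fewer cells that hold the transcript and less of it per cell cannot be told apart. The protein was not measured.

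The average log2 fold change of Trp53 was −0.56 (SE 0.10), with −0.61 on control diet and −0.51 on HFD. The difference between the diets had an unadjusted edgeR p of 0.636. A two-sided exact permutation test within diet gave p = 2.33e-05 (37 of 1585584 arrangements were as large). Across all genes its edgeR adjusted p was 0.210. The adjusted p was 0.00314 by DESeq2, 0.00301 by limma voom and 1.61e-05 with surrogate variables (log2 fold change −0.67). Without Control_p53KO 3, edgeR gave −0.63 and an adjusted p of 0.00634. Within replicates 1 and 2, 3 and 4, and 5 to 7, the log2 fold change was −0.56, −0.41 and −0.69. These sets were cut by replicate number and are called runs of library names below, as each holds consecutive library names. The labels name no sequencing run or batch.

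The other genes that act on p53 had small differences. Of the 18 tested members of a list of p53 relatives and regulators, 2 were higher and 2 lower at an unadjusted p under 0.05, where 2.36% of all genes were higher and 1.69% lower. The higher ones were Mdm4 and Herc2, and the lower ones Trp53 and Kat5. The median log2 fold change of the list was 0.07, against 0.01 over all genes. Mdm4, an inhibitor of p53, had medians of 46.0 CPM in Control_Rosa26KO, 54.5 in Control_p53KO, 48.1 in HFD_Rosa26KO and 51.5 in HFD_p53KO, an average log2 fold change of 0.15 (unadjusted p 0.0389). Herc2, a ubiquitin ligase of the DNA damage response, was at 0.33 on control diet and −0.05 on HFD, and Kat5, an acetyltransferase that modifies p53, at −0.25 and 0.05. For both, the difference between the diets had a small unadjusted edgeR p (0.00329 for Herc2, 0.00314 for Kat5), and neither passed after adjustment.

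**Figure D1:**
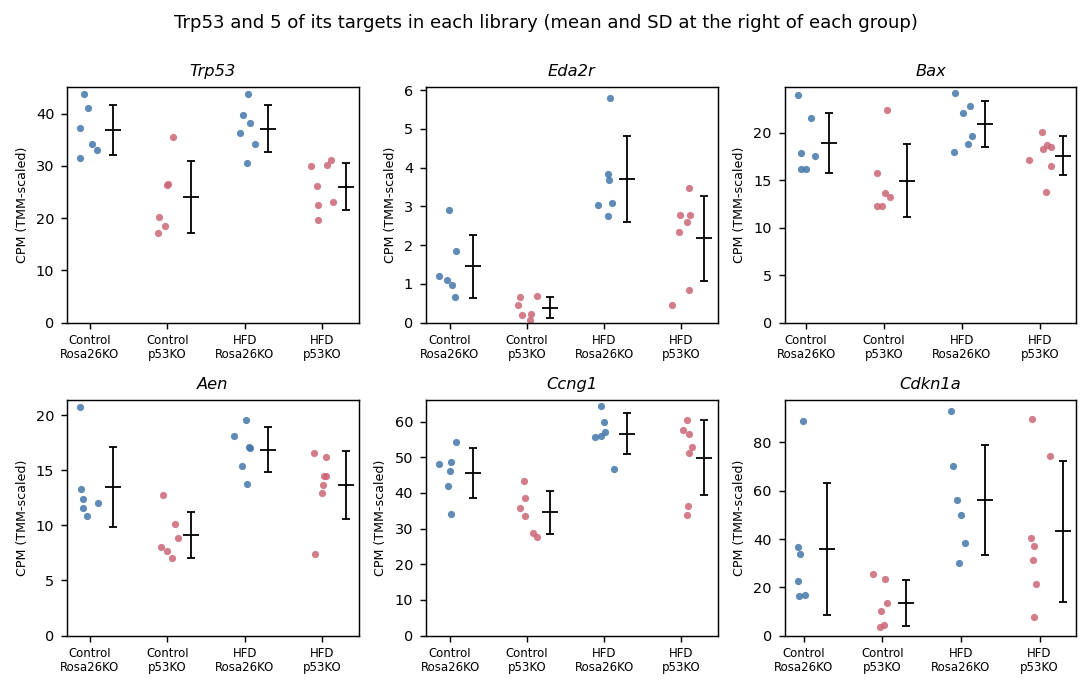
Normalised level (CPM, linear axes from 0) of Trp53 and 5 p53 target genes in each of the 25 libraries, by group, with the group mean and SD at the right of each group. Trp53 ran from 30.6 to 43.8 CPM in Rosa26KO and from 17.2 to 35.6 CPM in p53KO, while the targets overlap more between the genotypes and most are higher on HFD.

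Among 50 known p53 target genes, all of which were tested, 36 had a lower mean in p53KO in the average, where 46.7% of all genes did. At an unadjusted p under 0.05, 10 of the 50 were lower and 0 were higher, against 1.69% and 2.36% of all genes. The median log2 fold change was −0.13 for the targets and 0.01 for all genes. None passed the threshold by edgeR. Eda2r passed by DESeq2, and Bax, Aen and Eda2r passed with surrogate variables, where 18 were lower at an unadjusted p under 0.05 (5.86% of all genes). The list was drawn up from textbook targets, with earlier results of these data known.

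The sequences below show what p53 can read at a target gene, and they were chosen because the promoter window of each held a match to the p53 response element. The element is a pair of half-sites of 10 bases that may be separated by 1 base. Up to 2 mismatches were allowed, but none in the central 4 bases of each half-site (C, A or T, A or T, G). The element reads alike on both strands. RefSeq promoter windows on GRCm38.p6, from 250 bases before to 50 bases after the start of each gene, were searched. Of 39 targets with a window, 4 (10.3%) held a match, against 105 of all 32851 windows (0.320%) and 32 of the 10845 tested genes with a window (0.295%). Capitals mark the element, printed on the gene's strand with flanking bases.
Cdkn1a: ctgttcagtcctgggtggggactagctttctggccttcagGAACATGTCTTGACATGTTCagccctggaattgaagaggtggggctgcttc
Bax: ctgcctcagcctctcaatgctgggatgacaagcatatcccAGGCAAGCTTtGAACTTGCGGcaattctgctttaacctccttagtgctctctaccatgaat
Gtse1: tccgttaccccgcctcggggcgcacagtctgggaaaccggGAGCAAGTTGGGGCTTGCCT
Ckap2: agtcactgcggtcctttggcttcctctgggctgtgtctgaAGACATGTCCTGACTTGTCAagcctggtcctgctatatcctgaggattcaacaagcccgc
These stretches are chr17:29090888-29090978 (plus strand) for Cdkn1a, chr7:45467039-45467139 (minus strand) for Bax, chr15:85859905-85859964 (plus strand) for Gtse1 and chr8:22185963-22186062 (minus strand) for Ckap2. The elements of Cdkn1a and Gtse1 had 1 mismatch, and those of Bax and Ckap2 had 2. The average log2 fold change was −0.90 for Cdkn1a and −0.29 for Bax, both with an unadjusted p under 0.05. For Gtse1, a cell cycle protein that moves p53 out of the nucleus, it was −0.28 (unadjusted p 0.487), and for Ckap2, a spindle protein, −0.10 (unadjusted p 0.859). Gtse1 and Ckap2 were named for their windows. Among all genes with a window and an unadjusted p under 0.05, 4 of 186 lower genes (2.15%) and 1 of 261 higher genes (0.383%) held a match. A match of letters does not show that p53 was bound.

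Targets of cell cycle arrest and p53 feedback had the lowest median of the 3 target groups. Of these 14 genes, 13 had a lower mean in p53KO, with a median log2 fold change of −0.26. At an unadjusted p under 0.05, 4 were lower (1.69% of all genes). Within replicates 3 and 4 the median was 0.03, against −0.09 for the targets of cell death and 0.01 for the remaining targets. Cdkn1a, the cell cycle inhibitor p21, had 16.2, 28.2 and 88.9 CPM (lowest, median, highest) in Control_Rosa26KO and 3.54, 11.9 and 25.6 in Control_p53KO. On HFD it had 30.0, 53.03 and 93.2 CPM in Rosa26KO and 7.52, 37.1 and 89.7 in p53KO. The groups overlapped on both diets, and 11 of 13 p53KO libraries lay below the Rosa26KO median of their diet. The log2 fold change was −0.90 (SE 0.37), with an edgeR adjusted p of 0.966 and a two-sided exact permutation p of 0.0676.

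Ccng1, a cyclin that recruits a phosphatase to Mdm2, had 34.1, 47.2 and 54.4 CPM in Control_Rosa26KO and 27.5, 34.7 and 43.4 in Control_p53KO. On HFD it had 46.8, 56.5 and 64.3 CPM in Rosa26KO and 33.9, 52.97 and 60.5 in p53KO, and its average log2 fold change was −0.29 (SE 0.10, unadjusted edgeR p 0.00634). Plk2, a polo-like kinase, followed with −0.39 (SE 0.14, unadjusted p 0.0109). Trp53cor1, a long non-coding RNA next to Cdkn1a, had the lowest value of this group, −1.20, at a mean of 0.466 CPM, and is named after its value was seen. Mdm2, the ligase that degrades p53, had medians of 34.5 and 30.5 CPM in Rosa26KO and p53KO on control diet and 39.1 and 37.5 on HFD, a log2 fold change of −0.07 (SE 0.06) and a two-sided exact permutation p of 0.227. Ppm1d, the phosphatase that turns the damage response off, was at −0.15 (unadjusted p 0.0570).

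Of 16 targets of cell death, 12 had a lower mean in p53KO and 5 were lower at an unadjusted p under 0.05 (1.69% of all genes), with a median of −0.12, which was −0.04 without Control_Rosa26KO 2. Eda2r, a receptor for ectodysplasin on chromosome X (97333840 to 97377216, minus strand), had the largest fall in mean of these. Its lowest, median and highest levels were 0.671, 1.16 and 2.90 CPM in Control_Rosa26KO and 0.0571, 0.346 and 0.692 in Control_p53KO. On HFD they were 2.76, 3.39 and 5.80 CPM in Rosa26KO and 0.460, 2.59 and 3.47 in p53KO. The p53KO libraries lay below the Rosa26KO median of their diet in 12 of 13 cases. Eda2r had an average log2 fold change of −1.33 (SE 0.31) and adjusted p-values of 0.638 by edgeR, 0.0413 by DESeq2 and 0.0380 with surrogate variables. The value was −1.89 on control diet and −0.76 on HFD, and the difference between these had an unadjusted edgeR p of 0.0825.

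Bax, which opens the outer mitochondrial membrane in apoptosis, had 16.2, 17.7 and 23.9 CPM in Control_Rosa26KO and 12.3, 13.4 and 22.3 in Control_p53KO. On HFD the levels were 17.97, 20.8 and 24.1 CPM in Rosa26KO and 13.7, 18.3 and 20.1 in p53KO. In 12 of 13 p53KO libraries Bax lay below the Rosa26KO median, the exception being Control_p53KO 3 at 22.3 CPM. Its log2 fold change was −0.29 (SE 0.09), and −0.40 with surrogate variables, where the adjusted p was 0.00225. Exons of Bax overlap the gene model Gm45808 on the same strand, so some reads may belong to either. Aen, a nuclease of apoptosis, had medians of 12.2 and 8.45 CPM on control diet and 17.1 and 14.5 on HFD, a log2 fold change of −0.44 (SE 0.12) and an adjusted p of 0.0390 with surrogate variables. Phlda3, an inhibitor of Akt signalling, was at −0.56 (unadjusted p 0.0276). Zmat3 was at −0.31 (unadjusted p 0.0300). Bbc3 was at −0.14, and Pmaip1, Fas and Apaf1 were at 0.24, 0.17 and 0.18, with unadjusted p-values from 0.157 to 0.469. Zmat3, Bbc3, Pmaip1, Fas and Apaf1 are named outside the naming rule. In the whole list of 16, 12 had a lower mean and 4 a higher mean.

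Targets of repair, metabolism and other roles were close to level as a group. Of 20 genes, 11 had a lower mean in p53KO, and the median was −0.03. At an unadjusted p under 0.05, 1 was lower (1.69% of all genes). That gene was Gdf15, a stress hormone that limits food intake, with medians of 10.8 and 9.41 CPM in Rosa26KO and p53KO on control diet and 22.8 and 14.8 on HFD (log2 fold change −0.63, unadjusted p 0.0155). Within replicates 3 and 4 its log2 fold change was 0.27. Ddit4l, an inhibitor of mTOR, was at −0.51, and Polk, a translesion polymerase, at −0.20. Sesn1, a stress-induced regulator of mTOR, was at 0.13 (unadjusted p 0.0608). Repair genes outside the target list did not move together either: 13 of 26 were above 0, none had an unadjusted p under 0.05, and the median was 0.00.

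**Figure D2:**
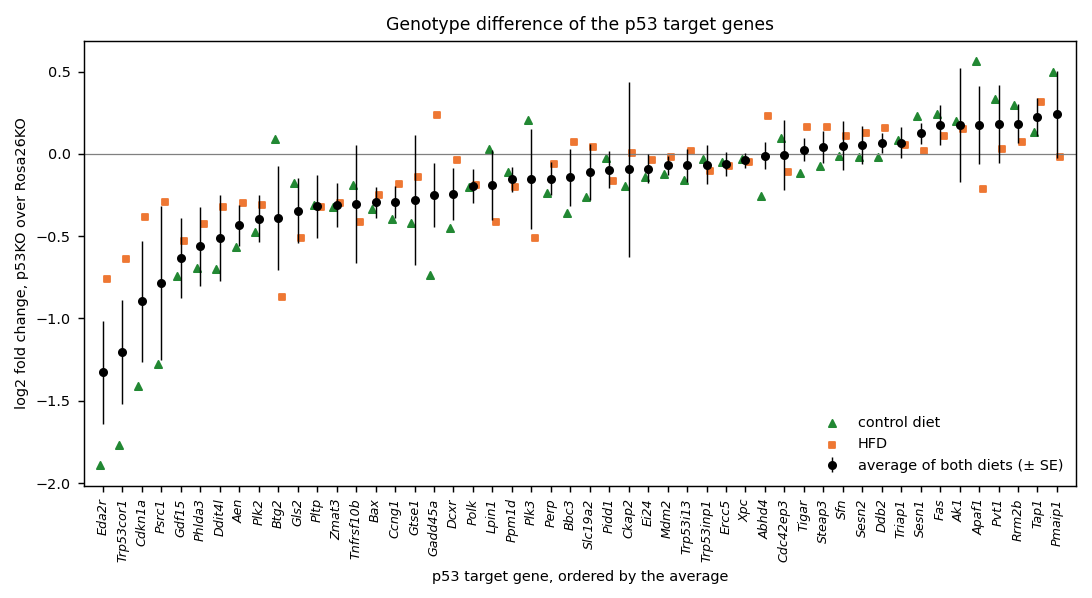
Log2 fold change, p53KO over Rosa26KO, of the 50 p53 target genes, ordered by the average of both diets (circles, bars are SE), with control diet as triangles and HFD as squares. The 9 genes with the lowest averages lie below 0 on both diets, with control-diet values further from 0 than HFD values.

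The shift of the targets held to different degrees in parts of the data. The median was −0.15 on control diet and −0.09 on HFD, which share no library. At an unadjusted p under 0.05, 10 targets were lower on control diet (4.12% of all genes) and 0 on HFD (1.88% of all genes). On both diets, 26 targets had a lower mean in p53KO (18.7% of all genes) and 7 a higher mean (23.5% of all genes). Control_Rosa26KO 2 was the highest library of its group for Cdkn1a (88.9 CPM), Gdf15 (40.4 CPM), Aen (20.7 CPM), Ddit4l (8.06 CPM) and Phlda3 (6.55 CPM). Without it, 31 targets had a lower mean, 7 were lower at an unadjusted p under 0.05 (1.85% of all genes in that fit) and 1 was higher, and the median was −0.07. The log2 fold change without it was −0.36 for Gdf15, −0.35 for Phlda3 and −0.31 for Ddit4l. Without the 3 libraries high in neutrophil genes, 42 targets had a lower mean and 12 were lower at an unadjusted p under 0.05 (1.43% of all genes in that fit). Within replicates 3 and 4 alone, 28 had a lower mean, 2 were lower (1.67% of all genes in that fit) and 2 higher at an unadjusted p under 0.05, and the median was −0.02.

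Outside the p53 pathway, Bach1, Zfp691, Ino80 and Hdac4 were among the genes of smallest p with a higher mean in p53KO. Bach1, a haem-regulated repressor of antioxidant genes (chromosome 16, 87698945 to 87733346, plus strand), had 26.8, 31.0 and 37.4 CPM in Control_Rosa26KO and 32.9, 39.7 and 44.2 in Control_p53KO. On HFD it had 26.6, 31.4 and 33.5 CPM in Rosa26KO and 33.4, 39.4 and 42.0 in p53KO. All 13 p53KO libraries lay above the Rosa26KO median of their diet. The log2 fold change was 0.31 (SE 0.06), 0.31 on control diet and 0.30 on HFD, with adjusted p-values of 0.219 by edgeR and 0.0129 by DESeq2. A list of 21 genes held Bach1, Nfe2l2 and Keap1 themselves beside genes known to answer to NRF2 or Bach1. Of the 21, 13 were above 0, and the median was 0.01. At an unadjusted p under 0.05, 1 was higher and 1 lower, against 2.36% and 1.69% of all genes. The higher one was Bach1 itself, and the lower one was Nfe2l2, the gene of NRF2, at −0.31.

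Zfp691, a zinc finger protein, had 7.09, 7.92 and 9.33 CPM in Control_Rosa26KO and 8.61, 9.22 and 10.8 in Control_p53KO. On HFD the ranges did not overlap, with 7.16, 7.71 and 7.86 CPM in Rosa26KO and 8.47, 9.56 and 10.6 in p53KO. On HFD, 11 genes (0.0778%) lay wholly higher and 10 (0.0708%) wholly lower in p53KO, and 0 genes (0.0%) were separated in the same direction on both diets. The average log2 fold change of Zfp691 was 0.28 (SE 0.06), with adjusted p-values of 0.219 by edgeR and 0.0270 by DESeq2. Ino80, the ATPase of the INO80 chromatin remodelling complex, was at 0.19 (SE 0.04), and every p53KO library lay above the Rosa26KO median of its diet. Hdac4, a histone deacetylase, was at 0.22 (SE 0.05), and its adjusted p was 0.837 by edgeR and 0.0480 with surrogate variables. Of 28 genes of chromatin remodelling and histone deacetylation, 14 were above 0, with a median of 0.01. At an unadjusted p under 0.05, 3 were higher (Ino80, Hdac4 and Ino80d), where 2.36% of all genes were.

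Other genes with a higher mean and a small p were a mixed group. Rad18, a ubiquitin ligase of DNA damage tolerance, had medians of 1.01 and 1.41 CPM in Rosa26KO and p53KO on control diet and 1.25 and 1.71 on HFD, a log2 fold change of 0.52. Rian, an imprinted non-coding RNA that hosts small nucleolar RNAs, was at 1.09, and all 13 p53KO libraries lay above the Rosa26KO median of their diet. Its exons overlap several small RNA models on the same strand. Dock5, an activator of Rac, was at 0.20, Pdcd10, a cavernous malformation gene, at 0.15, Rbsn, an endosomal protein, at 0.22, and Tbl1xr1, a corepressor subunit, at 0.23. The edgeR adjusted p of these 6 genes was 0.966.

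**Figure D3:**
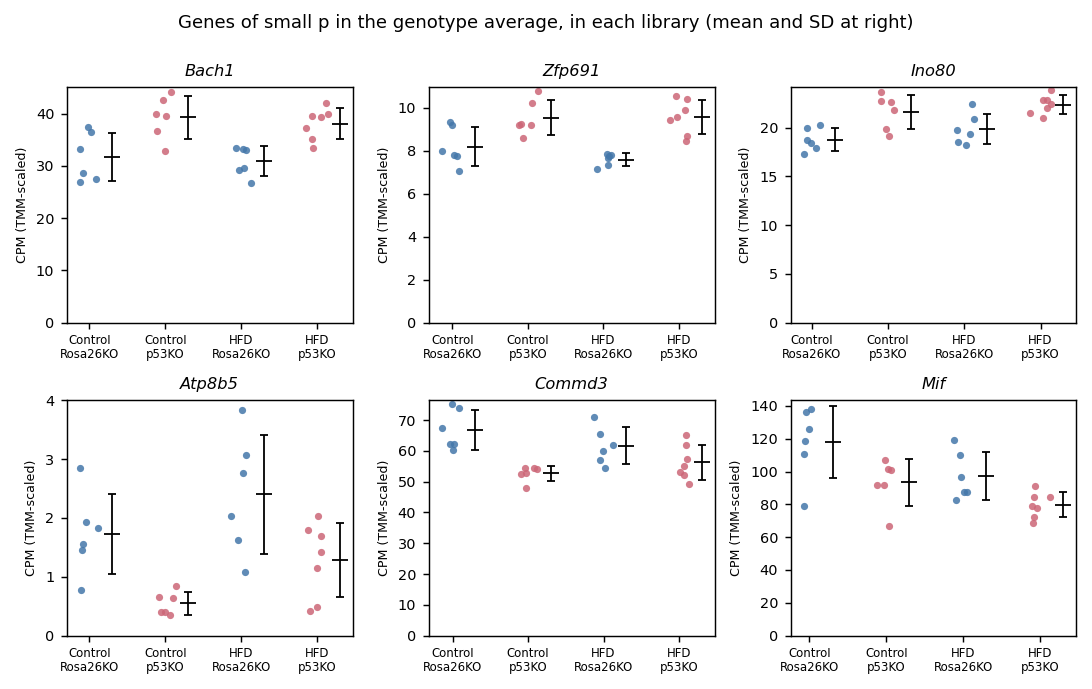
Normalised level (CPM, linear axes from 0) of 6 genes of small p in the genotype average, in each of the 25 libraries, with group mean and SD at the right of each group. Bach1, Zfp691 and Ino80 are higher and Atp8b5, Commd3 and Mif lower in the p53KO means on both diets, with overlap between single libraries in all but Zfp691 on HFD and Commd3 on control diet.

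Among genes with a lower mean, Atp8b5 stood next to Trp53. This member of the P4-ATPase family, which moves phospholipids across membranes, lies on chromosome 4 (43267159 to 43373833, plus strand). It had 0.773, 1.69 and 2.85 CPM in Control_Rosa26KO and 0.343, 0.525 and 0.839 in Control_p53KO, and on HFD 1.07, 2.40 and 3.83 against 0.409, 1.42 and 2.03. All 13 p53KO libraries lay below the Rosa26KO median of their diet. The log2 fold change was −1.28 (SE 0.26), with adjusted p-values of 0.219 by edgeR and 0.0123 by DESeq2. It was the only 1 of 14 tested P4-ATPase flippases at an unadjusted p under 0.05 (4.05% of all genes), and their median was 0.03.

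Commd3, of a family that takes part in endosomal sorting, had 60.2, 64.9 and 75.2 CPM in Control_Rosa26KO and 47.8, 53.5 and 54.5 in Control_p53KO, with no overlap. Genes wholly lower in p53KO on control diet numbered 24 (0.17%), and genes wholly higher 16 (0.113%). On HFD its levels overlapped, at 54.4, 61.0 and 71.0 CPM in Rosa26KO and 49.2, 55.1 and 65.1 in p53KO. The average log2 fold change was −0.24 (SE 0.05), with adjusted p-values of 0.547 by edgeR, 0.0427 by DESeq2 and 0.0390 with surrogate variables. Mif, a cytokine that acts on macrophages, was lower than the Rosa26KO median of its diet in all 13 p53KO libraries, with a log2 fold change of −0.31 (SE 0.09). Mbl2, a lectin of the complement system made by hepatocytes, had medians of 319 and 226 CPM on control diet and 341 and 210 on HFD (log2 fold change −0.51). Lhx6, a homeobox factor, was at −0.49. Slc7a4, of an amino acid transporter family, was at −1.08 on control diet and 0.04 on HFD, a difference with an unadjusted edgeR p of 0.000640.

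Endog, a mitochondrial endonuclease (chromosome 2, 30171493 to 30174069, plus strand), had medians of 25.7 and 18.05 CPM in Rosa26KO and p53KO on control diet and 18.1 and 12.4 on HFD. In 12 of 13 p53KO libraries it lay below the Rosa26KO median, and HFD_p53KO 7, at 30.7 CPM, lay above every HFD_Rosa26KO library. The log2 fold change was −0.40 (SE 0.14) with an edgeR adjusted p of 0.966. The adjusted p was 0.0217 by limma voom, where HFD_p53KO 7 had a quality weight of 0.279 (0.240 to 2.80 over all libraries). With surrogate variables the adjusted p of Endog was 0.0118. Its exons overlap Spout1 on the opposite strand, and the strand of counting is not given in the sources used here. The remaining calls with surrogate variables were Sulf2 (−0.48), Efna3 (−0.74) and Acot13 (−0.25), which are named after their values were seen.

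Rpph1, the RNA part of ribonuclease P, had a log2 fold change of −2.49 (SE 0.60) and adjusted p-values of 0.664 by edgeR and 0.0413 by DESeq2. Its level was 0.442, 3.64 and 10.1 CPM in Control_Rosa26KO and 0, 0.367 and 1.14 in Control_p53KO, and on HFD 0.133, 0.435 and 4.56 against 0.102, 0.223 and 0.864. Within replicates 3 and 4 the log2 fold change was 0.75. Rpph1 carries no poly(A) tail, whereas poly(A) RNA was sequenced here. Rmrp, the related RNA of ribonuclease MRP, which also has none, was lower too, with means of 1.99 and 0.285 CPM on control diet, 0.413 and 0.239 on HFD, and a log2 fold change of −1.85 (unadjusted p 0.00610). Terc, the RNA of telomerase and a further one of this kind, had too few counts to be tested and was not lower, with means of 0.1005 and 0.109 CPM on control diet and 0.119 and 0.132 on HFD. The part of carry-over of such RNAs in this result was not tested. Exons of Rpph1 also overlap Ccnb1ip1 on the same strand.

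The largest fold changes at an unadjusted p under 0.05 were taken among genes averaging 1 CPM or more, passing over model and clone names. Each of the 5 largest positive ones in the average rested on 1 library, as did 3 of the 5 largest negative ones. Sult1e1 and Sult2a1, sulfotransferases of steroids, H19, an imprinted fetal RNA, and Spink1, a trypsin inhibitor, had fitted log2 fold changes of 3.46, 2.67, 1.97 and 2.31. Control_p53KO 1 held 113 CPM of Sult1e1, 55.7 of Sult2a1, 89.3 of H19 and 22.8 of Spink1, while the medians of its group were 0.242, 0.0250, 1.55 and 0.0972. Without this library the values were 0.28, −0.98, 0.15 and −0.13. Saa3, an acute phase protein, was at 1.93 with 345 CPM in HFD_p53KO 2, and at 0.31 without that library. Ppbp, Gp1ba and Alox12, genes of platelets, were at −1.45, −1.40 and −1.32, with 130, 18.4 and 21.8 CPM in HFD_Rosa26KO 6 against group medians of 2.16, 0.474 and 1.06. Without it they were at −0.04, −0.13 and −0.32.

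Genes of fatty acid synthesis had lower means in p53KO throughout. All 21 of the list were below 0 in the average, and 17 were below 0 on both diets, where 18.7% of all genes were. At an unadjusted p under 0.05, 3 were lower (1.69% of all genes). The median log2 fold change was −0.36, with −0.37 on control diet and −0.37 on HFD. Srebf1, the factor that drives the pathway, had 386, 462 and 604 CPM in Control_Rosa26KO and 140, 291 and 504 in Control_p53KO. On HFD it had 312, 396 and 494 CPM in Rosa26KO and 242, 338 and 419 in p53KO, and its average log2 fold change was −0.40 (SE 0.15, unadjusted edgeR p 0.0128). Pnpla3, a lipid droplet protein under Srebf1 control, had medians of 55.0 and 21.6 CPM on control diet and 14.4 and 9.61 on HFD (log2 fold change −1.25). Fads2, a desaturase, was at −0.35 and Acaca, the first enzyme of the pathway, at −0.30 (unadjusted p 0.0542). The groups overlapped for all 4 of these genes. The median of the list ran from −0.46 without Control_p53KO 4 to −0.30 without Control_p53KO 3. Within the 3 runs of library names it was −0.31, −0.34 and −0.36. The SD of the mean log2 level of the list between libraries of 1 group was 0.36 to 0.65, beside a median difference of −0.36 between the genotypes.

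Mitochondrial genes had small differences of the same sign. All 34 genes of oxidative phosphorylation were below 0 in the average and 30 were below 0 on both diets, yet none had an unadjusted p under 0.05 and the median was −0.11. With surrogate variables the median was −0.12, and 16 of the 34 were lower at an unadjusted p under 0.05 (5.86% of all genes). The SD of the mean log2 level of the list between libraries of 1 group was 0.20 to 0.27, larger than this difference. Sdhd, a subunit of complex II, was the member of smallest p (−0.18, unadjusted p 0.0827). Of 29 genes of fatty acid oxidation, 27 were below 0 and none had an unadjusted p under 0.05, with a median of −0.12, which was −0.05 without Control_Rosa26KO 5. With surrogate variables 6 were lower at an unadjusted p under 0.05. Within replicates 5 to 7 the medians of both lists were 0.03 and 0.01. Hepatocyte markers went the same way, with 12 of 16 below 0 and a median of −0.10 (−0.05 without Control_p53KO 3), and their part in these results was not tested.

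Markers of T and NK cells were above 0 in all 18 tested members, with 5 higher at an unadjusted p under 0.05 (2.36% of all genes) and a median log2 fold change of 0.64. The summed level of the list was 19.6, 30.2 and 51.9 CPM in Control_Rosa26KO and 25.7, 44.3 and 240 in Control_p53KO, and on HFD 24.5, 33.9 and 55.1 against 15.9, 47.8 and 97.8. The highest library on each diet was p53KO replicate 3. Il7r, the receptor of interleukin 7, was at 0.85, Cd3d, a part of the T cell receptor complex, at 0.89, Gzmb, a granzyme, at 0.76 and Ccl5, a chemokine, at 0.85. Without Control_p53KO 3, Ccl5 was at 0.43, Cd3d at 0.59 and Gzmb at 0.48, and without HFD_p53KO 3 Il7r was at 0.55. Without Control_p53KO 3 the median of the list was 0.25, and with surrogate variables it was 0.20. Genes of antigen presentation were above 0 in 16 of 16, where 46.7% of all genes were below 0. At an unadjusted p under 0.05, 2 were higher (2.36% of all genes). These were Nlrc5, an activator of part of the list, at 0.29, and Psmb8, an immunoproteasome subunit, at 0.24. The median of the list was 0.25, and 0.04 without Control_p53KO 3. Without the 3 libraries high in neutrophil genes, 7 were below 0 and the median was 0.03. With surrogate variables 6 were below 0 and the median was 0.03. The part of the T and NK cell markers in the result for antigen presentation was not tested.

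Markers of hepatic stellate cells, the vitamin A storing cells of the sinusoid, were below 0 in 13 of 16, with 4 lower at an unadjusted p under 0.05 (1.69% of all genes) and a median of −0.19. Within the 3 runs of library names the median was −0.08, −0.07 and −0.31. The split by diet was uneven, with a median of 0.07 on control diet and −0.38 on HFD. Ecm1, a matrix protein, had medians of 162 and 144 CPM in Rosa26KO and p53KO on control diet and 136 and 94.7 on HFD (log2 fold change −0.39). Colec11 (−0.38) and Colec10 (−0.34), secreted lectins, and Vipr1 (−0.27), a peptide receptor, were the others. On HFD, all 7 p53KO libraries of Colec10 lay below every Rosa26KO library, at 6.23, 16.1 and 23.5 CPM against 24.4, 28.0 and 38.0. Of all genes tested, 10 (0.0708%) were wholly lower in p53KO on HFD. The value of Colec10 was 0.18 on control diet and −0.85 on HFD, and the difference had an unadjusted edgeR p of 0.00352. HFD_p53KO 7 held the lowest level of all 4. Markers of the sinusoidal endothelium were below 0 in 18 of 19, where 46.7% of all genes were. At an unadjusted p under 0.05, 1 was lower (1.69% of all genes), Clec4g, a lectin, at −0.28. With surrogate variables 0 were lower at that p (5.86% of all genes). The median of the list was 0.09 on control diet and −0.37 on HFD. In the average it was −0.14, and −0.08 without HFD_p53KO 7.

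**Figure D4:**
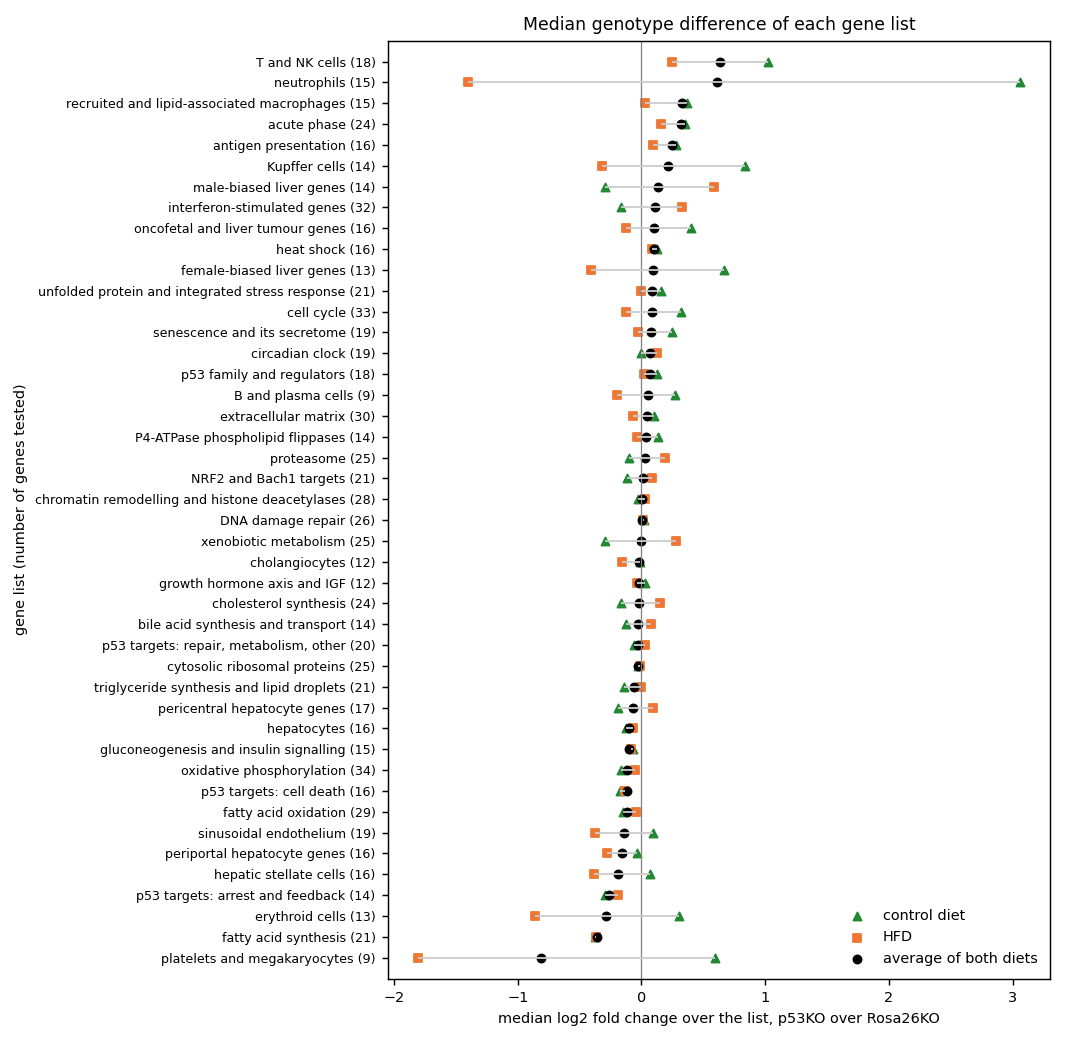
Median log2 fold change, p53KO over Rosa26KO, of each gene list (number of genes tested in brackets), as the average of both diets (circles), on control diet (triangles) and on HFD (squares). Fatty acid synthesis and the arrest targets of p53 lie below 0 in all 3 values, as do other lists such as oxidative phosphorylation, fatty acid oxidation and hepatocyte markers. The neutrophil, platelet, erythroid and Kupffer cell lists are among those with medians of opposite sign on the diets, widest for neutrophils (3.06 and −1.40).

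For most genes the genotype differences of the diets that the average joins had opposite signs. The genotype difference had the same sign on both diets in 5964 of 14133 genes (42.2%). Across these genes the values of control diet and HFD, which come from separate libraries scaled and fitted together, had a Pearson r of −0.24 and a Spearman rho of −0.19, and genes are not independent replicates. Over the 50 p53 targets the same values were 0.48 and 0.40, and 33 (66.0%) had the same sign. Over the 55 genes with an unadjusted p under 0.05 on both diets, 12 (21.8%) had the same sign. No gene passed the threshold for genotype by diet (0 of 14133, 0.0%), and 1221 (8.64%) had an unadjusted p under 0.05. On control diet alone 0 genes (0.0%) passed and 1408 (9.96%) had an unadjusted p under 0.05. On HFD alone these were 0 (0.0%) and 509 (3.6%). The share of all genes with a lower mean in p53KO was 48.1% on control diet and 47.2% on HFD.

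Neutrophil markers had the widest split between the diets among the lists. Their median was 3.06 on control diet and −1.40 on HFD. For genotype by diet, 10 of 15 had an unadjusted p under 0.05 (8.64% of all genes). Mpo, an enzyme of neutrophil granules, was at 5.13 on control diet and −3.89 on HFD, and at 0.62 in the average. It had 38.7 CPM in Control_p53KO 1 and 49.8 CPM in HFD_Rosa26KO 6, while its group medians ran from 0.150 to 1.26 CPM. Without the 3 libraries high in neutrophil genes the average of the list was 0.06. Platelet and megakaryocyte genes had medians of 0.59 and −1.80 on the diets and −0.82 in the average, and −0.04 without HFD_Rosa26KO 6. Erythroid genes had 0.30 and −0.86, and HFD_Rosa26KO 1 and 6 held the highest levels of all libraries. Kupffer cell genes had 0.83 and −0.32 and an average of 0.21, which was −0.16 without Control_p53KO 3, the library of their highest level. Rogdi and Zfp64, the genes of smallest p for genotype by diet outside these lists, had averages of −0.07 and −0.02. Rogdi was at −0.39 on control diet and 0.25 on HFD, and Zfp64, a zinc finger protein, at −0.34 and 0.30.

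**Figure D5:**
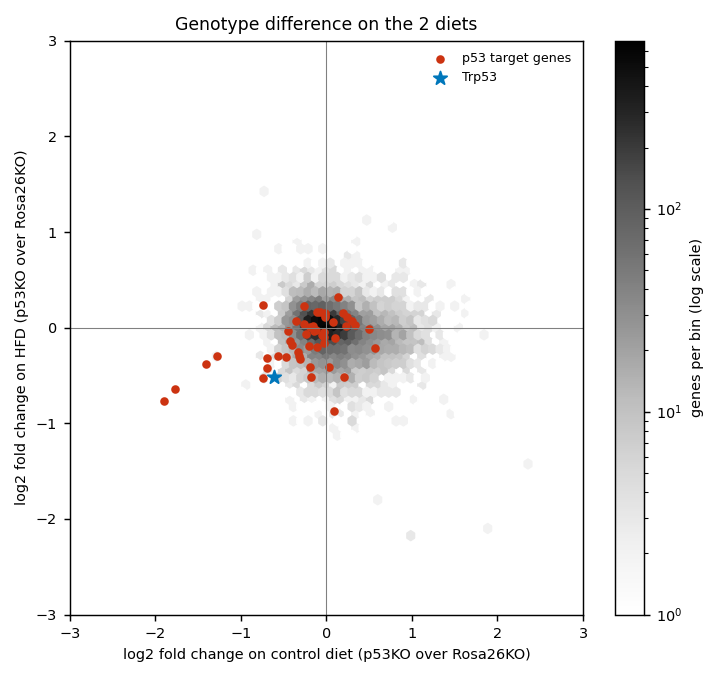
Log2 fold change, p53KO over Rosa26KO, on control diet (horizontal) against HFD (vertical) for 14108 genes, shaded by the number of genes per bin on a log scale, while 25 genes beyond 3 on either axis are not shown. Trp53 (star) and most p53 targets (dots) lie in the lower left, whereas the cloud of all genes slopes downward (Pearson r −0.24).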

How the data were processed

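Liver poly(A) RNA was sequenced as paired reads in 25 libraries. The deposited table holds unnormalised read counts for each gene symbol, per the file headers. STAR and HOMER were the tools, and GRCm38 (mm10) the build, per the submitters' processing notes. Their versions, the annotation and the counting strand were not given in the sources used here. Positions and exon overlaps are from GENCODE on GRCm38, and promoter windows from RefSeq on GRCm38.p6.

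Genes were kept by filterByExpr (minimum count 10, minimum total 15) and libraries scaled by TMM. A robust quasi-likelihood model with 1 mean per group was fitted in edgeR 4.0.16 to all 25 libraries, with Benjamini-Hochberg adjustment of two-sided p-values over all genes tested and a threshold of 0.05. The contrast was the mean of the 2 p53KO groups minus the mean of the 2 Rosa26KO groups. Levels are CPM on TMM-scaled library sizes. Trp53, Cdkn1a and Mdm2 were also tested by exact permutation of CPM within diet, unadjusted. The procedure was tested on simulated data.

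Named genes were Trp53, Cdkn1a and Mdm2, the 10 rises and 10 falls of smallest p among genes averaging 1 CPM or more, the 5 largest of each at an unadjusted p under 0.05, genes called by a tool, up to 4 members of smallest p of each list, and the 5 of smallest p for genotype by diet. This choice passed over names of gene models and clones, and kept to genes averaging 1 CPM or more throughout. The comparison, lists and members were chosen with earlier results of these data known. Alternatives were RLE scaling, 2 other filters, DESeq2 1.42.0, limma 3.58.1 voom with quality weights, non-robust dispersion, other terms, surrogate variables (sva 3.50.0), single runs of library names and each library left out. Settings without the libraries high in neutrophil or acute phase genes were added after seeing the data. R was 4.3.3.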

Additional observations from a re-analysis of the deposited data

Results flagged for a closer look

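Of 320 combinations of a named gene and a group, 49 were flagged for a library far from the others of its group by Dixon's criterion. Chance alone gives about 1 in 20 for normally distributed values. Some genes were named for large fold changes that rest on 1 library, and the CPM values were not log-transformed. The 49 can therefore not be weighed against that share. Control_p53KO 1 and HFD_Rosa26KO 6 each held 9 of these, Control_Rosa26KO 2 held 8 and Control_p53KO 3 held 6. All values below are normalised levels in CPM.

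Control_p53KO 1 was high in Sult1e1 (113), Sult2a1 (55.7), Spink1 (22.8), H19 (89.3), Chil3 (55.2), Il1rn (97.6), Mpo (38.7), Ngp (138) and Camp (18.5). HFD_Rosa26KO 6 was high in Ppbp (130), Gp1ba (18.4), Alox12 (21.8), Chil3 (25.2), Sptb (9.79), Itga2b (40.2), Mpo (49.8), Ngp (110) and Camp (9.95). These 2 libraries share high levels of the neutrophil granule genes Mpo, Ngp and Camp although they differ in genotype and diet.

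Control_Rosa26KO 2 was high in the p53 targets Cdkn1a (88.9), Aen (20.7), Phlda3 (6.55), Gdf15 (40.4) and Ddit4l (8.06), and in Pdk4 (54.6), Nfe2l2 (169) and Krt19 (4.68). Control_p53KO 3, the p53KO library of highest Trp53, was high in the targets Bax (22.3) and Phlda3 (3.37) and in the T and NK cell genes Gzmb (11.8), Cd3d (5.12) and Ccl5 (56.0), and low in Commd3 (47.8).

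HFD_p53KO 3 was high in Il7r (8.04), Cd3d (3.93) and Gp1ba (0.740). HFD_p53KO 7 was high in Endog (30.7) and low in Ppm1d (4.14) and Ecm1 (44.4). HFD_p53KO 5 was low in Aen (7.36) and high in Cyp4a12a (267), a fatty acid hydroxylase. HFD_p53KO 2 was high in Saa3 (345), and HFD_p53KO 6 was low in Ino80d (14.3). Among Rosa26KO libraries on HFD, replicate 1 was high in Eda2r (5.80), replicate 2 in Cyp4a12a (115) and replicate 5 in Rpph1 (4.56) and Il1rn (22.3), and replicate 4 was low in Spink1 (0.298). On control diet, Rosa26KO replicate 1 was high in Alox12 (2.30) and replicate 4 in Pnpla3 (201).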

How the results depend on the processing

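The count of genes called in the average was 0 by edgeR, 7 by DESeq2, 2 by limma voom, 10 with surrogate variables, 1 with the replicate block and 1 without the libraries high in neutrophil genes, and 0 to 1 with each library left out (1, Trp53, without Control_p53KO 3). It was 0 under the other scaling, filter, dispersion, model and run settings. For genotype by diet it was 5 by DESeq2 and 1 with surrogate variables, on control diet 1 and 2, and on HFD 1 and 1. Trp53 was past the threshold by DESeq2 (−0.56), limma voom (−0.59), surrogate variables (−0.67), the replicate block (−0.61, adjusted p 0.0299) and without the libraries high in neutrophil genes (−0.65), and ran from −0.63 to −0.52 with each library left out. The replicate block therefore moved 1 call. Replicate numbers do not pair the samples by label: of 36 same-numbered pairs across groups, 17 correlated above 0.1 (median 0.08, against −0.05 for other numbers).

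Directions reversed for some named genes, and the cause was not tested. Within replicates 3 and 4 these were Mdm2 (0.056), Gdf15 (0.27), Rpph1 (0.75), Sult2a1 (−0.42), Saa3 (−0.56), Ppbp (0.71), Gp1ba (0.54), Fgf21 (0.024) and Itga2b (0.24). Within replicates 5 to 7 they were Sult2a1 (−1.41), H19 (−0.70), Atf5 (0.0082), Chil3 (−1.06) and Il1rn (−0.037). Without the libraries high in neutrophil genes they were Sult2a1 (−0.94), Spink1 (−0.16) and Il1rn (−0.014), and without those high in acute phase genes Sult2a1 (−0.75) and Chil3 (−0.042). Sult2a1 also reversed by limma voom (−0.38). With each library left out, Sult2a1 ran from −0.98 to 3.03, Spink1 from −0.13 to 2.57 and Chil3 from −0.0033 to 2.31, each lowest without Control_p53KO 1. Genes under 1 CPM rest on few counts in each library, which limits the precision of their fold changes.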

Other observations

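Several liver programmes not described above had differences of opposite sign on the diets, so that their averages lay near 0. All 25 proteasome genes had a higher mean in p53KO on HFD (median log2 fold change 0.19) and 24 of 25 had a lower mean on control diet (−0.10), for an average median of 0.03. At an unadjusted p under 0.05, 9 of the 25 differed between the diets (8.64% of all genes). All 32 interferon-stimulated genes were above 0 on HFD (median 0.33), while 24 were below 0 on control diet (−0.17). Herc6, an interferon-induced ligase of ISG15, was the member of smallest p in the average (0.33, unadjusted p 0.0342). Genes higher in male than in female mouse liver had medians of −0.29 on control diet and 0.58 on HFD, and genes higher in females had 0.67 and −0.41. The average of the latter was 0.09, and −0.11 without Control_p53KO 1. On control diet the p53KO libraries of highest mean log2 level of the female-biased genes were Control_p53KO 1 and 4 (1.12 and 1.21 relative to the mean of all libraries), while the group medians were −0.74 in p53KO and −0.43 in Rosa26KO. For the male-biased genes by the same measure, Control_p53KO 1 was the lowest of its group at −2.45. The group medians on control diet were 0.51 in p53KO and 0.86 in Rosa26KO. The median summed level of these genes was higher in Control_p53KO (8399 CPM) than in Control_Rosa26KO (7108 CPM). Cyp4a12a, a male-biased fatty acid hydroxylase, had medians of 220 and 120 CPM in Rosa26KO and p53KO on control diet. On HFD its medians were 40.9 and 135 CPM. Genes of xenobiotic metabolism had medians of −0.29 and 0.28, and cholesterol synthesis −0.16 and 0.15.

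Heat shock genes were above 0 in 15 of 16 in the average (median 0.10), with none at an unadjusted p under 0.05, and the median was 0.01 without Control_p53KO 3. The average median of acute phase genes was 0.32, and −0.16 without Control_p53KO 1. Of 33 cell cycle genes, 29 were above 0 on control diet and 31 below 0 on HFD, with none at an unadjusted p under 0.05 on either diet or in the average. Bhlhe41, a repressor of the circadian clock, had an average of 0.60 (unadjusted p 0.0314), and the 19 clock genes had a median of 0.07. Cyp2b10, a xenobiotic cytochrome, had medians of 9.75 and 2.79 CPM in Rosa26KO and p53KO on control diet and 0.962 and 0.490 on HFD, for an average log2 fold change of −0.91. Fgf21, a liver hormone of fasting, was at −0.78, Pdk4, a kinase that limits glucose oxidation, at −0.48 (−0.29 without Control_Rosa26KO 2, which held 54.6 CPM) and Fabp5, a fatty acid carrier, at −0.60. None of these genes passed the threshold by edgeR, DESeq2 or limma voom.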
